A study of Homo sapiens with 10 samples.

Results

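Sphingosine-1-phosphate (S1P) is a signalling lipid, and the genes described here make it, break it down or receive it. They were named by symbol: SPHK1, SPHK2, SGPL1, SGPP1, ASAH1, CERS2, SPNS2, S1PR1, S1PR2 and S1PR3. Of these 10, 8 were matched among the 14054 genes of the count table, and SPNS2 and S1PR2 were not analysed here. The genes were chosen by their place in the pathway and with log2 fold changes of the same comparison already known, among them that of SPHK1. Differences of the 8 are therefore described without a test, and nothing beyond their own values rests on them.

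The cells were MRC5, a human foetal lung fibroblast line. In the stretch group, 5 libraries came from MRC5 given medium conditioned by mechanically stretched A549 cells, a human cell line from a lung adenocarcinoma that is used as a model of the alveolar epithelium. In the static group, 5 libraries came from MRC5 given medium conditioned by A549 that were not stretched. The labels disagree on the exposure, with 24 hours in the sample descriptions and 6 hours in the series design. Fibroblasts in medium that no A549 had conditioned were not analysed here, so each difference is relative to medium of unstretched A549.

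In the cell, ceramide is cleaved to sphingosine, and sphingosine kinases add a phosphate to give S1P. S1P is returned to sphingosine by phosphatases or is cleaved for good by the S1P lyase. Exported S1P acts on G protein-coupled receptors, and in fibroblasts these are known to signal to the actin cytoskeleton and to interact with the TGF-beta response.

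Total counts per library ran from 4231653 to 8455073. A gene's level is given as CPM, which are counts brought to the same library size with TMM factors. The kit amplifies short targets with gene-specific primers, so CPM were compared between libraries within a gene and not between genes. In a bulk lysate, fewer cells that make a transcript and less transcript per cell cannot be told apart. The fibroblast label was met by its markers, and all 10 on the list were measured. Their summed level was 12480 to 16381 CPM with stretch medium and 14363 to 16334 CPM with static medium. In stretch 2, VIM was at 1580 CPM, against 4091 to 4328 CPM in the other stretch libraries. Marker sums are totals of amplified counts, so they are given by group and not compared between lists. Of 10 markers of A549 and lung epithelium, 6 were measured, and their sum was 34.8 to 41.4 CPM with stretch medium and 30.9 to 38.2 CPM with static medium. Only CDH1, which encodes the epithelial cadherin, averaged under 1 CPM over all libraries. KRT18, KRT19, MUC1, EPCAM and KRT8 averaged 12.9, 12.3, 5.54, 2.80 and 2.21 CPM. Of 6 endothelial markers, 4 were measured, with a sum of 48.4 to 68.2 CPM with stretch medium and 53.7 to 65.9 CPM with static medium, most of it from TEK. VWF, the endothelial von Willebrand factor gene, averaged under 1 CPM. Of 6 leukocyte and platelet markers, 4 were measured, and CD68, a lysosomal protein gene that fibroblasts also express, held nearly all of their sum of 182 to 233 CPM with stretch medium and 194 to 209 CPM with static medium. The part of these markers in the results below was not tested. Each library was compared with the mean of the others of its group over all genes tested, and the Pearson r of log2 CPM was 0.976 to 0.987, lowest for static 7. Static 7 was also the highest or the lowest static library for 6 of the 8 S1P genes, and values without it are given beside several results.

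SPHK1 was higher and SGPL1 was lower with stretch medium, and for the other 6 genes the groups overlapped. SPHK1 encodes sphingosine kinase 1, the mainly cytosolic enzyme that makes S1P at the plasma membrane, and SGPL1 encodes the S1P lyase, which ends the pathway. The edgeR quasi-likelihood test across all 10968 genes tested called 0 of the 8 at an adjusted p of 0.05, where it called 0.0% of all genes. At an unadjusted p under 0.05 there were 2 of the 8, beside 16.4% of all genes, and groups did not overlap for 2 of the 8, beside 3.72% of all genes. DESeq2 called 1 of the 8 at an adjusted p of 0.05, beside 2.51% of all genes, with genes that it gave no adjusted p counted as not called. The genes whose groups did not overlap were SPHK1 and SGPL1. Nothing is read from these counts, because the contrast was known when the genes were chosen, and they are no test of the 8 genes. The median log2 fold change of the 8 was 0.032, and that of all genes tested was 0.00035.

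**Figure D1:**
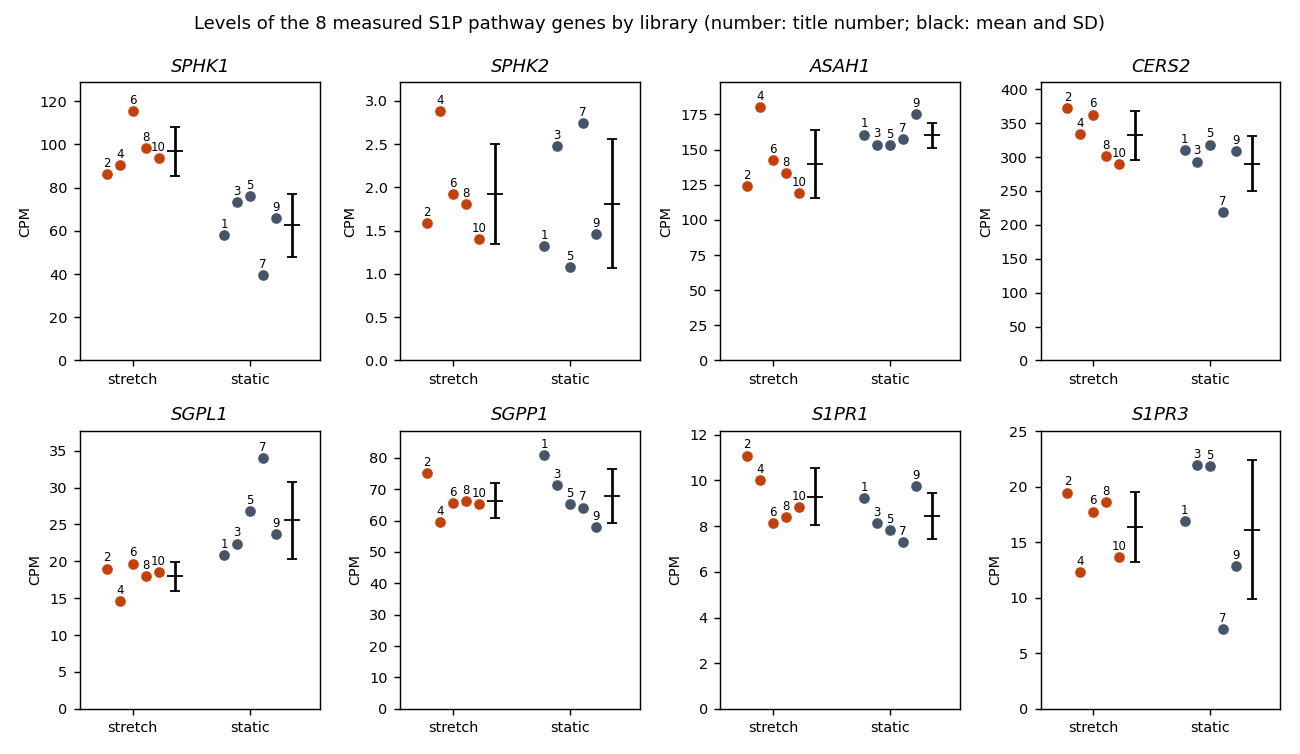
CPM of the 8 measured S1P genes (one panel each, axis from 0) in the 5 libraries with stretch medium (left) and the 5 with static medium (right). Each point is a library with its title number, and the black bar is the mean and SD. SPHK1 in stretch libraries starts at 86.4 CPM, above the highest static library at 76.1 CPM, and SGPL1 in stretch libraries ends at 19.7 CPM, below the lowest static library at 20.9 CPM.

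SPHK1 (ENSG00000176170) lies on the plus strand of chromosome 17, from 76376584 to 76387860 (GRCh38, GENCODE release 29). Its level with stretch medium was 86.4, 90.3, 115, 98.3 and 93.6 CPM in stretch 2, 4, 6, 8 and 10, against 58.0, 73.2, 76.1, 39.7 and 65.9 CPM in static 1, 3, 5, 7 and 9. Every stretch library was above every static library, with the widest distance between stretch 6 and static 7. The means were 96.8 ± 11.3 CPM with stretch medium and 62.6 ± 14.6 CPM with static medium (SD, n = 5 each). The fitted log2 fold change, stretch minus static, was 0.63 ± 0.15 (standard error) with a 95% interval of 0.31 to 0.95, or 1.55-fold. Of all genes tested, 0.957% had a higher log2 fold change. Without static 7 the log2 fold change was 0.50, the lowest value with any library left out, and without static 5 it was 0.71, the highest. The raw counts behind these levels were 264 to 839 reads per library.

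The annotation of SPHK1 overlaps that of PRPSAP1, a phosphoribosylpyrophosphate synthetase-associated protein gene on the opposite strand. The use of strand in counting is not given in the sources used here, so reads from the overlap of the genes cannot be told apart. PRPSAP1 was at 26.7 ± 3.11 CPM with stretch medium and 25.0 ± 4.89 CPM with static medium (SD, n = 5 each), a log2 fold change of 0.094 with an interval of -0.23 to 0.42.

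RefSeq (GRCh38.p14) gives SPHK1 3 start sites in the promoter table and SGPL1 1, and gene counts do not show which start was used. Promoter windows run from 250 bases before to 30 bases after a start. Those of SPHK1 starts 1 and 3 and of SGPL1, the pair of genes whose groups did not overlap, are shown. AP-1 motifs (TGANTCA, which reads as itself on the other strand) are in capitals. The window of SPHK1 start 2 held no such motif and is not shown. AP-1 is a family of transcription factors induced by growth factors and stress.
SPHK1 start 1, plus strand, chr17:76382954-76383233: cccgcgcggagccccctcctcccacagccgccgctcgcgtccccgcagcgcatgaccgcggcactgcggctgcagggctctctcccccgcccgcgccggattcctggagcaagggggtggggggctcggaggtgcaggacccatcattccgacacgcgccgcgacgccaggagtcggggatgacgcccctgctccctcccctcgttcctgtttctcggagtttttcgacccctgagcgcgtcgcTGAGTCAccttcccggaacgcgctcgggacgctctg
SPHK1 start 3, plus strand, chr17:76385028-76385307: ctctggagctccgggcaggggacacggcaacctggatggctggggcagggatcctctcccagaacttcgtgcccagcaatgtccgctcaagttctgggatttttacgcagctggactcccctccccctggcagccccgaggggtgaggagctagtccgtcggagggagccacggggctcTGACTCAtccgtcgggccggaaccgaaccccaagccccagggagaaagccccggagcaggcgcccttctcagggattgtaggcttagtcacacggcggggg
SGPL1, plus strand, chr10:70815698-70815977: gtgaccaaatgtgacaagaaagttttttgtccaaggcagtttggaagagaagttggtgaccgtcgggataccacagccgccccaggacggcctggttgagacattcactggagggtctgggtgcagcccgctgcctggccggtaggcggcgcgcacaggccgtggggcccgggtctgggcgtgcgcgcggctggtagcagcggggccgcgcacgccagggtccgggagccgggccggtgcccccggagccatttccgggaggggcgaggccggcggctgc

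The motif began 6 bases before SPHK1 start 1 and 71 bases before SPHK1 start 3. It was not found in the window of SPHK1 start 2 or of SGPL1, nor in the windows of SPHK2, S1PR1 and S1PR3. Of 35116 windows of this length in the table, 7.35% held it. The motif was picked after the windows were seen, so these matches are no evidence of enrichment. Another motif searched for, TGACGTCA, was in none of the windows of SPHK1, SPHK2, SGPL1, S1PR1 and S1PR3, beside 1.85% of all windows. No windows of ASAH1, CERS2 and SGPP1 were searched for any motif. The GC box (GGGCGG, either strand) occurred in 44.1% of all windows, and was found once in the window of SPHK1 start 1, at 2 places in that of start 2, and once in that of SGPL1. It was not found in the window of SPHK1 start 3. The motifs do not overlap one another in these windows. These are matches of letters, and binding was not measured.

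SPHK2 encodes the second sphingosine kinase, found largely in the nucleus and mitochondria, and lies on chromosome 19 from 48619291 to 48630717, where it overlaps DBP and RPL18 on the opposite strand. It was at 1.92 ± 0.575 CPM with stretch medium and 1.81 ± 0.744 CPM with static medium (SD, n = 5 each). These levels rest on 6 to 21 reads per library. Its log2 fold change of 0.040 had an interval of -0.65 to 0.73, so a difference as large as that of SPHK1 was not detectable at this depth. The estimate was 0.23 without static 7 and -0.14 without stretch 4.

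SGPL1 (ENSG00000166224) lies on chromosome 10 from 70815961 to 70881173 and overlaps no other annotated gene. Its level with stretch medium was 19.0, 14.6, 19.7, 18.0 and 18.5 CPM in stretch 2, 4, 6, 8 and 10, against 20.9, 22.4, 26.8, 33.9 and 23.7 CPM in static 1, 3, 5, 7 and 9. Every stretch library was below every static library, though stretch 6 and static 1 lay close together. The means were 17.95 ± 1.96 CPM with stretch medium and 25.5 ± 5.17 CPM with static medium (SD, n = 5 each). This gave a log2 fold change of -0.51 ± 0.15 (interval -0.84 to -0.18), or 0.702-fold. Of all genes tested, 3.97% had a lower log2 fold change. Without static 7, the library with the highest SGPL1, it was -0.38, and without static 1 it was -0.57.

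Kinase and lyase counts were also set against each other within each library, where library size cancels. The ratio of SPHK1 to SGPL1 CPM was 4.55, 6.17, 5.87, 5.47 and 5.07 in stretch 2, 4, 6, 8 and 10, against 2.78, 3.27, 2.84, 1.17 and 2.78 in static 1, 3, 5, 7 and 9. The group means were 5.43 ± 0.643 with stretch medium and 2.57 ± 0.808 with static medium (SD, n = 5 each). Without static 7 the static mean was 2.92 ± 0.235 (n = 4). The ratio compares amplicon counts and is not a ratio of transcript or enzyme amounts. It combines the 2 genes whose groups were already seen not to overlap, so it is a description of the same difference.

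**Figure D2:**
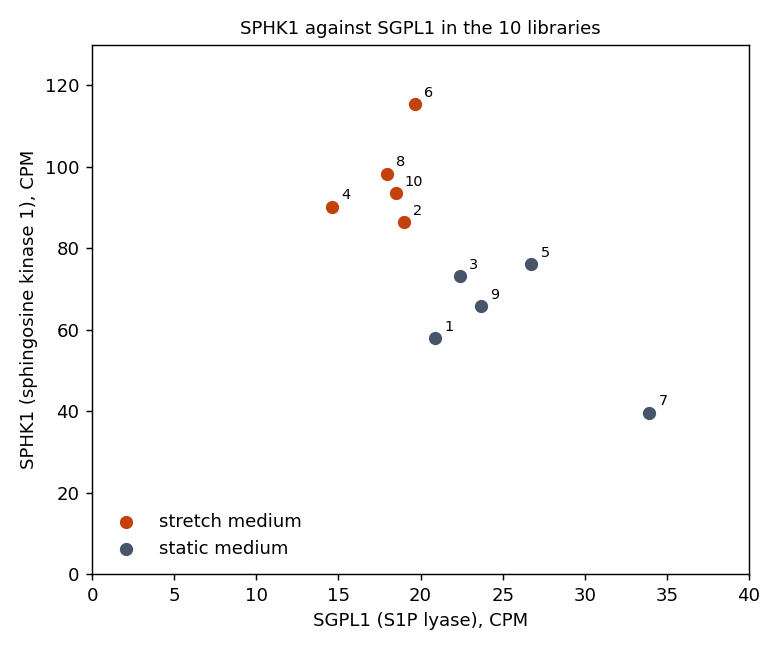
SPHK1 CPM (vertical axis) against SGPL1 CPM (horizontal axis), both from 0, in the 5 libraries with stretch medium and the 5 with static medium, each point with its title number. The stretch libraries lie above and to the left of the static libraries, and static 7, at 39.7 CPM of SPHK1 and 33.9 CPM of SGPL1, lies farthest from them.

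SGPP1 encodes an S1P phosphatase of the endoplasmic reticulum, which returns S1P to sphingosine, and lies on chromosome 14 from 63684214 to 63728039. It was at 66.4 ± 5.61 CPM with stretch medium and 67.9 ± 8.70 CPM with static medium (SD, n = 5 each). Its log2 fold change of -0.031 had an interval from -0.27 up to 0.21, which does not contain the estimate for SPHK1 or that for SGPL1. The stretch libraries, from 59.5 to 75.1 CPM, lay inside the range of the static libraries, from 57.8 to 80.9 CPM.

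Of the genes upstream of the kinases, ASAH1 encodes acid ceramidase, the lysosomal enzyme that frees sphingosine from ceramide, and lies on chromosome 8 from 18055992 to 18084998, overlapping an annotated antisense gene. Its level with stretch medium was 124, 179.9, 142, 133 and 119 CPM in stretch 2, 4, 6, 8 and 10, against 161, 154, 153, 158 and 175 CPM in static 1, 3, 5, 7 and 9. Stretch 2, 6, 8 and 10 were below every static library, and stretch 4 was above every static library. Over all libraries, its log2 fold change of -0.19 ± 0.12 had an interval from -0.44 up to 0.050, and without stretch 4 the value was -0.30.

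CERS2 encodes the ceramide synthase that prefers very long acyl chains and so uses sphingoid bases that the kinases could otherwise take. It lies on chromosome 1 from 150960583 to 150975004 and overlaps SETDB1 on the opposite strand. Its level with stretch medium was 372, 334, 363, 302 and 290.1 CPM in stretch 2, 4, 6, 8 and 10, against 310.1, 293, 319, 219 and 309 CPM in static 1, 3, 5, 7 and 9. The groups overlapped, and static 7 was the lowest library. CERS2 had a log2 fold change of 0.20 ± 0.12 (interval -0.053 to 0.44), and of 0.11 without static 7. SETDB1, a histone methyltransferase gene, was at 9.84 ± 1.54 CPM with stretch medium and 7.68 ± 0.928 CPM with static medium (SD, n = 5 each).

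Both measured receptors were at low counts. S1PR1 encodes the receptor that couples to Gi proteins and is best known in endothelium and lymphocytes, and lies on chromosome 1 from 101236865 to 101243713. It was at 9.29 ± 1.24 CPM with stretch medium and 8.45 ± 1.01 CPM with static medium (SD, n = 5 each), from 42 to 69 reads per library. Its log2 fold change of 0.13 had an interval of -0.21 to 0.48, and was 0.066 without stretch 2 and 0.084 without static 7. The groups overlapped, with only stretch 2 and stretch 4 above the highest static library.

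S1PR3 encodes a receptor that couples to Gi, Gq and the G12 and G13 proteins, and lies on chromosome 9 from 88990863 to 89005010. Its level with stretch medium was 19.5, 12.3, 17.7, 18.6 and 13.7 CPM in stretch 2, 4, 6, 8 and 10, against 16.9, 21.9, 21.8, 7.18 and 12.8 CPM in static 1, 3, 5, 7 and 9. The static libraries spanned a wider range that held all stretch libraries. S1PR3 had a log2 fold change of 0.023 ± 0.25 (interval -0.50 to 0.54), and it was -0.17 without static 7 and 0.17 without static 3. Its biological coefficient of variation, the spread between libraries beyond counting, was 26.4%, against a trend of 19.1% for genes of its level. For S1PR1 the values were 14.6% against 21.1%, and for SPHK1 17.3% against 15.7%.

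How the 8 genes varied within a group did not use the comparison of the groups, so it could be tested. Log2 CPM were centred on each group's mean, and Pearson r was computed over the 10 libraries for the 28 pairs, with exact two-sided permutation within groups (14400 arrangements). After Benjamini-Hochberg adjustment over the 28 pairs, 0 passed 0.05, and 2 had an unadjusted p under 0.05. SPHK1 and S1PR3 had r = 0.81 (exact permutation p = 0.0316, adjusted p = 0.467) and a Spearman coefficient of 0.60 (exact permutation p = 0.102). Without static 7 and static 5, the libraries farthest from the SPHK1 median, r was 0.38. Leaving out the extremes of a gene narrows its range and can lower r by itself, so nothing more is read from such a drop. CERS2 and S1PR3 had r = 0.73 (exact permutation p = 0.0486, adjusted p = 0.467) and a Spearman coefficient of 0.61 (exact permutation p = 0.0693). Without static 7 and stretch 10, r was 0.15. SPHK1 and SGPL1, which differed in opposite directions between groups, were not among the pairs with an unadjusted p under 0.05.

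**Figure D3:**
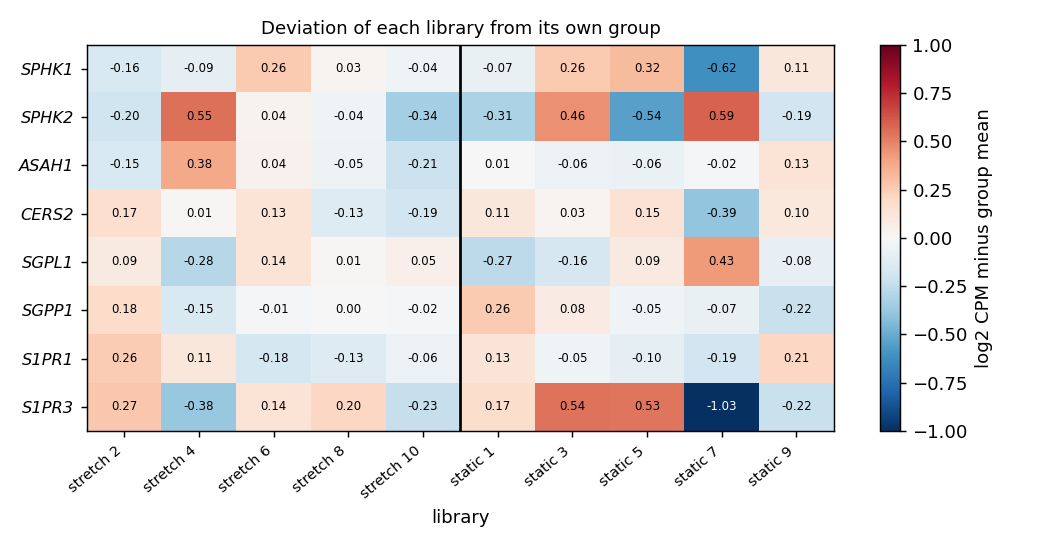
Log2 CPM of each S1P gene minus the mean of its own group, for the 5 libraries with stretch medium (left of the line) and the 5 with static medium (right), on a colour scale from -1 to 1. Static 7 lies 1.03 below its group mean for S1PR3 and 0.62 below it for SPHK1, and 0.43 above it for SGPL1.

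The genes whose within-group pattern was most like that of SPHK1 were taken as the 5 with the highest Pearson r of centred log2 CPM over the 10 libraries, out of all genes tested. This is a description of the top of a long ranking and carries no p. FAM180A had r = 0.96, and r = 0.90 without static 7. POR, the electron donor of microsomal cytochrome P450 enzymes, had r = 0.96 and 0.86 without static 7. The remaining genes were WASH7P, a pseudogene of a family of near-identical copies and therefore uncertain, VCAN, the matrix proteoglycan versican, and RDH14, a retinol dehydrogenase. Their r was 0.96, 0.96 and 0.95, and 0.90, 0.89 and 0.88 without static 7. FAM180A had a log2 fold change of 0.75 ± 0.16 between groups, whereas that of VCAN was -0.16 ± 0.17. Without centring on group means, 1 of these 5 remained among the 5 highest.

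The other genes of sphingolipid metabolism and S1P signalling were listed by their known role in 5 lists of 70 genes, of which 57 were measured and 51 passed the filter on low counts. Earlier results of these data were known when the lists were chosen, so their p-values are no independent test. Over these lists, 4 genes were higher and 3 lower with stretch medium at an unadjusted p under 0.05, or 13.7% of those tested, near the 16.4% of all genes. Of all genes, 8.08% were higher and 8.37% lower by this measure. None of the 51 passed an adjusted p of 0.05 in edgeR, and the smallest adjusted p was 0.109. DESeq2 called 2 of the 51 at an adjusted p of 0.05, beside 2.51% of all genes. It gave some low-count genes no adjusted p, and these were counted as not called in both shares. Groups did not overlap for 2 of the 51, beside 3.72% of all genes. Nothing is read from counts this small. The median log2 fold change of the 51 was 0.025.

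**Figure D4:**
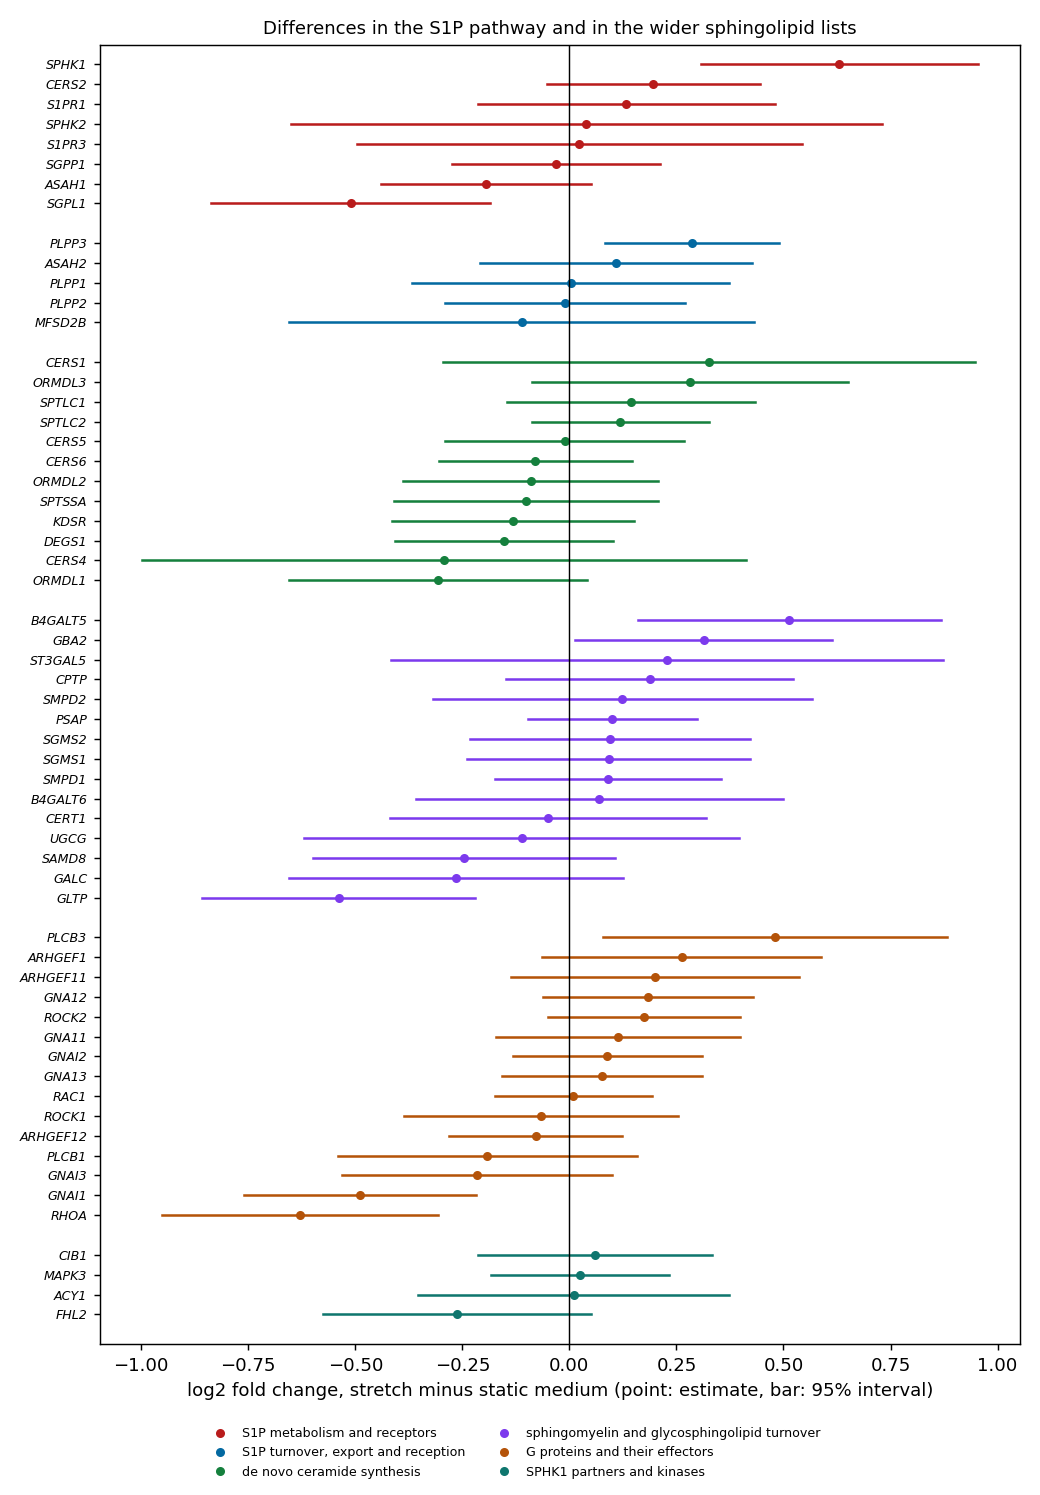
Log2 fold change, stretch minus static medium, with its 95% interval for the 8 S1P genes (top) and the 51 tested genes of the 5 wider lists, ordered within each list. Intervals of 7 of the 51 genes of the wider lists exclude 0, some of them above it and some below. The 8 S1P genes are shown without a test.

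Among other genes of S1P turnover, export and reception, 13 were listed, 8 measured and 5 tested, with a median log2 fold change of 0.0028. PLPP3, a lipid phosphate phosphatase of the cell surface that dephosphorylates S1P and lysophosphatidic acid, was the only one of them with an unadjusted p under 0.05. Its level with stretch medium was 117, 112, 121, 119.5 and 132 CPM in stretch 2, 4, 6, 8 and 10, against 91.7, 91.5, 99.8, 105 and 106 CPM in static 1, 3, 5, 7 and 9. Every stretch library was above every static library. PLPP3 had a log2 fold change of 0.29 ± 0.096 (edgeR unadjusted p = 0.00862, adjusted p = 0.167). The related phosphatase genes PLPP1 and PLPP2 had log2 fold changes of 0.0028 and -0.010, with intervals that spanned 0. S1PR5, the gene of another S1P receptor, had at most 2 reads in a library and was not tested.

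None of the 12 tested genes of de novo ceramide synthesis had an unadjusted p under 0.05, and their median log2 fold change was -0.085. The smallest p was that of ORMDL1, which encodes a brake on serine palmitoyltransferase, at -0.31 ± 0.17 (edgeR unadjusted p = 0.0809, adjusted p = 0.367). SPTLC1 and SPTLC2, subunits of that first enzyme of the pathway, were at 0.14 and 0.12.

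Of 15 tested genes of sphingomyelin and glycosphingolipid turnover, 2 were higher and 1 lower with stretch medium at an unadjusted p under 0.05, with a list median of 0.092. GLTP, a cytosolic glycolipid transfer protein gene, was at 9.40 ± 0.977 CPM with stretch medium and 13.6 ± 1.498 CPM with static medium (SD, n = 5 each). Every stretch library was below every static library, and the log2 fold change was -0.54 ± 0.15 (edgeR unadjusted p = 0.00244, adjusted p = 0.129). B4GALT5, a lactosylceramide synthase gene, was at 46.1 ± 9.66 CPM with stretch medium and 32.3 ± 6.78 CPM with static medium (SD, n = 5 each). Its groups overlapped, and its log2 fold change was 0.51 ± 0.17 (edgeR adjusted p = 0.159). Without stretch 2 the value for B4GALT5 was 0.39, the lowest with a library left out. GBA2, the non-lysosomal glucosylceramidase gene, had a log2 fold change of 0.31 ± 0.14 (edgeR unadjusted p = 0.0411, adjusted p = 0.284), with overlapping groups. Leaving out stretch 2, 4, 6 or 8 or static 7 or 9 took GBA2 past an unadjusted p of 0.05, with edgeR unadjusted p-values of 0.0576 to 0.108 and log2 fold changes of 0.25 to 0.32.

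Of 15 tested genes of G proteins and their effectors, 1 was higher and 2 were lower with stretch medium at an unadjusted p under 0.05, with a list median of 0.076. RHOA, the small GTPase that G12- and G13-coupled receptors activate, was at 407, 649.9, 462, 481 and 507 CPM in stretch 2, 4, 6, 8 and 10, against 713, 557, 739.7, 1034 and 835 CPM in static 1, 3, 5, 7 and 9. Stretch 2, 6, 8 and 10 were below every static library, and stretch 4 lay above static 3. The log2 fold change was -0.63 ± 0.15 (edgeR adjusted p = 0.109, DESeq2 adjusted p = 0.0129), and -0.50 without static 7. GNAI1, a Gi alpha subunit gene, was at 61.4 ± 6.32 CPM with stretch medium and 86.2 ± 13.7 CPM with static medium (SD, n = 5 each). Its log2 fold change was -0.49 ± 0.13 (edgeR adjusted p = 0.117, DESeq2 adjusted p = 0.0242). GNAI2 and GNAI3, which encode the other Gi alpha subunits, were at 0.089 and -0.22, with intervals that spanned 0. PLCB3, a phospholipase C activated by Gq, had a log2 fold change of 0.48 ± 0.19 (edgeR unadjusted p = 0.0221, adjusted p = 0.233). It was 0.32 without stretch 6 (edgeR unadjusted p = 0.0893) and 0.36 without static 7 (edgeR unadjusted p = 0.0588). GNA12 and GNA13 were at 0.18 and 0.076, and ROCK1 and ROCK2, the kinases activated by RHOA, at -0.065 and 0.17, each with an interval that spanned 0.

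Of the binding partners and kinases of SPHK1, 4 were tested and none had an unadjusted p under 0.05. The smallest p was that of FHL2, a LIM-domain protein reported to bind and inhibit SPHK1, at -0.26 ± 0.15 (edgeR unadjusted p = 0.0942, adjusted p = 0.391). CIB1, which carries SPHK1 to the plasma membrane, was at 0.060, and MAPK3, the gene of a kinase that phosphorylates it, was at 0.025. EEF1A1, a translation factor gene with near-identical copies across the genome, and therefore uncertain, was at up to 2.81 CPM with stretch medium and up to 2.92 CPM with static medium. With 0 to 20 reads per library it did not pass the filter on low counts and was not tested.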

How the data were processed

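RNA of 10 MRC5 libraries was measured, 5 with stretch and 5 with static medium. The Ion AmpliSeq Transcriptome kit was used, per the labels' protocols, and fastp 0.20.1, Salmon 1.9 and hg38/GRCh38 are named in the submitters' processing notes. How strand was used, the annotation and any rounding were not given in the sources used here. As deposited, the values are unscaled counts of 14054 Ensembl genes, each above 0 in at least 5 libraries. Columns were matched by title number, and 13831 identifiers had a symbol. No label says whether libraries of a group were separate cultures, and if they were not, a p-value reflects technical spread between them. Counts are of amplified reads, and counting limits cover counting error only; 3 reads were 0.355 to 0.709 CPM per library.

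Genes and lists were chosen with earlier results of these data known. edgeR 4.0.16 (R 4.3.3) was used with filterByExpr (minimum count 10, total 15), TMM, the quasi-likelihood test and Benjamini-Hochberg adjustment over 10968 genes. Log2 CPM used a prior count of 2. The interval given with a log2 fold change covers 95%. The fit and the correlation test were checked on simulated data. Named genes were the S1P genes, every gene of the wider lists with an unadjusted p under 0.05 or else the smallest p of its list, and the 5 genes most like SPHK1. Other genes of these lists (PLPP1, PLPP2, S1PR5, SPTLC1, SPTLC2, GNAI2, GNAI3, GNA12, GNA13, ROCK1, ROCK2, CIB1, MAPK3, EEF1A1) and PRPSAP1 and SETDB1, which overlap S1P genes, were named after values were seen, as were the motifs after the windows were seen. A gene first put on these lists is not reported here, and list counts leave it out. Alternatives were DESeq2 size factors, library totals, no filter, 50 counts in 5 libraries, DESeq2 1.42.0, limma-voom (limma 3.58.1) and each library left out.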

Additional observations from a re-analysis of the deposited data

Results flagged for a closer look

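A library far from the others of its group was found in 4 of 32 groups of 5 values checked. The rule was a Dixon ratio, the gap to the nearest value over the range, above 0.71. The groups share the same 10 libraries and static 7 made most of the flags, so the count is not set against chance. In static 7, CERS2 was at 219 CPM, against 293 to 319 CPM in the other static libraries. The ratio of SPHK1 to SGPL1 in static 7 was 1.17, against 2.78 to 3.27 in the other static libraries. GNAI1 in static 7 was at 62.1 CPM, against 88.4 to 94.6 CPM in the other static libraries. GNAI1 in stretch 4 was at 72.4 CPM, against 57.2 to 61.2 CPM in the other stretch libraries. The log2 fold change of GNAI1 was -0.59 without static 7.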

How the results depend on the processing

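Over all genes, 0 passed an adjusted p of 0.05 in edgeR, while 1804 had an unadjusted p under 0.05. At the same adjusted threshold DESeq2 called 275 genes and limma-voom 1, and with a library left out edgeR called 0 to 39, the most without stretch 4, with 2 without stretch 6 and 1 without stretch 10. The 7 genes of the wider lists with an unadjusted p under 0.05 became 5 to 11 with a library left out, fewest without static 7 and most without static 3, and stayed 7 under the other alternatives. The log2 fold change of SPHK1 was 0.50 to 0.71 with a library left out and 0.62 to 0.66 under the others. The 111 alternative values of the other S1P genes moved by less than the SD between libraries. Leaving out 1 of 5 libraries can hardly move a group mean that far, so this is no evidence of stability. The sign of SPHK2, SGPP1 and S1PR3 changed in 4, 2 and 5 of the values. With a library left out, the log2 fold change of SGPL1 was -0.57 to -0.38 and that of S1PR3 -0.17 to 0.17. Of 112 alternative values of the 7 wider genes, 104 kept their direction and an unadjusted p under 0.05, and 8, of GBA2 and PLCB3, kept only their direction. No pair of S1P genes passed in any of 13 alternatives of the correlation test. Of the 5 genes most like SPHK1, 5 remained with DESeq2 size factors and 1 without centring. No paired analysis was made because the groups share no title number, so a pairing of libraries, if there was one, was not used. Depth limits SPHK2 most, at 6 to 21 reads per library. Leaving out a library makes a smaller design, and the cause of each shift was not tested.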
